A study of Mus musculus with 4 samples.

Results

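White adipocytes store triglyceride in a single large lipid droplet and secrete hormones such as leptin and adiponectin. Brown adipocytes hold many small droplets and burn fatty acids through uncoupling protein 1, and fat of both kinds is known to surround the mouse aorta. The genes described here were 33 adipocyte genes, taken from the table by symbol: regulators, adipokines, lipid droplet proteins, thermogenic genes, lipases, enzymes of triglyceride synthesis and other adipose-rich genes. All 33 were found by symbol among the 39179 genes of the deposited table, and 31 of them, whose normalized read counts averaged at least 10 over the libraries, were tested.

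RNA-seq was done on samples labelled as primary aortic smooth muscle cells, from 2 groups of mice with 2 libraries each. The library titles name only the aorta. The knockout (KO) libraries came from Sm-Yap/Taz-KO mice, in which the transcriptional co-activators YAP and TAZ of the Hippo pathway were deleted in smooth muscle, and the others from wild-type (WT) mice. RNA of every library was taken 18 days after tamoxifen injection, which the labels give for KO and WT alike. The labels give neither the Cre driver, nor the age of the mice, nor whether replicates are separate animals, so the p-values reflect just the variation among these libraries, which may be technical. The normalized counts of a library summed to between 13279332 and 14519178, and the spacing of the rounded values gave an estimated 12300000 and 11800000 reads on genes in KO and 15600000 and 16800000 in WT libraries. Yap1, one of the deleted genes, had 947 and 962 normalized counts in KO and 1966 and 1877 in WT libraries (log2 fold change -1.01, SE 0.10, limma adjusted p = 0.0080). Wwtr1, which encodes TAZ, had 2848 and 2466 in KO and 3423 and 4016 in WT libraries, and its difference missed the threshold (limma adjusted p = 0.055).

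The labelled cell type was checked against its markers. All 10 smooth muscle markers were present in every library, led in WT by Myh11 (smooth muscle myosin heavy chain; 64964 and 49813 normalized counts in KO, 168117 and 164384 in WT) and Acta2 (smooth muscle actin; 41201 and 33544 in KO, 157904 and 150117 in WT). The defining adipocyte genes Adipoq, Plin1, Cidec and Lep were also present in every library, WT included. So were the 10 fibroblast markers, whose counts summed to 271004 and 277122 in KO and 82712 and 174868 in WT libraries. The 10 smooth muscle markers summed to 198456 and 151390 in KO and 485418 and 455808 in WT libraries. In RNA from many cells together, a change in the number of cells of a type cannot be told apart from a change in RNA per cell.

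Most of the adipocyte genes were higher in the KO libraries. At a limma adjusted p under 0.05, 22 of the 31 tested members rose in KO and 2 fell, while 7 were not called. Over all 15058 tested genes, 9.58% rose and 6.7% fell. The median log2 fold change of the tested members was 1.72, beside -0.02 over all tested genes. KO and WT values did not overlap for 27 members with KO above WT and for 3 with KO below WT, where 30.7% and 32.1% of all tested genes were so placed. Without KO replicate 1, KO replicate 2 or WT replicate 1, limma called 0 members higher, with 8, 10 and 22 members higher at an unadjusted p under 0.05. Without WT replicate 2 it called 14. Without the filter on low values, or without an intensity trend in limma's variance estimate, 0 members and 0 of all genes were called, with 24 members higher at an unadjusted p under 0.05 in both fits. The log2 fold change was above 0 for 28 of the 31 members with all 4 libraries and for 27 or 28 whichever library was left out. Without KO replicate 1, KO replicate 2, WT replicate 1 and WT replicate 2 in turn, the members' median was 1.63, 1.74, 1.31 and 2.07. That of all tested genes was -0.02, -0.01, -0.02 and -0.03. With a library left out, calls fell over all tested genes too, so a count of 0 here or below is not particular to a list.

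**Figure D1:**
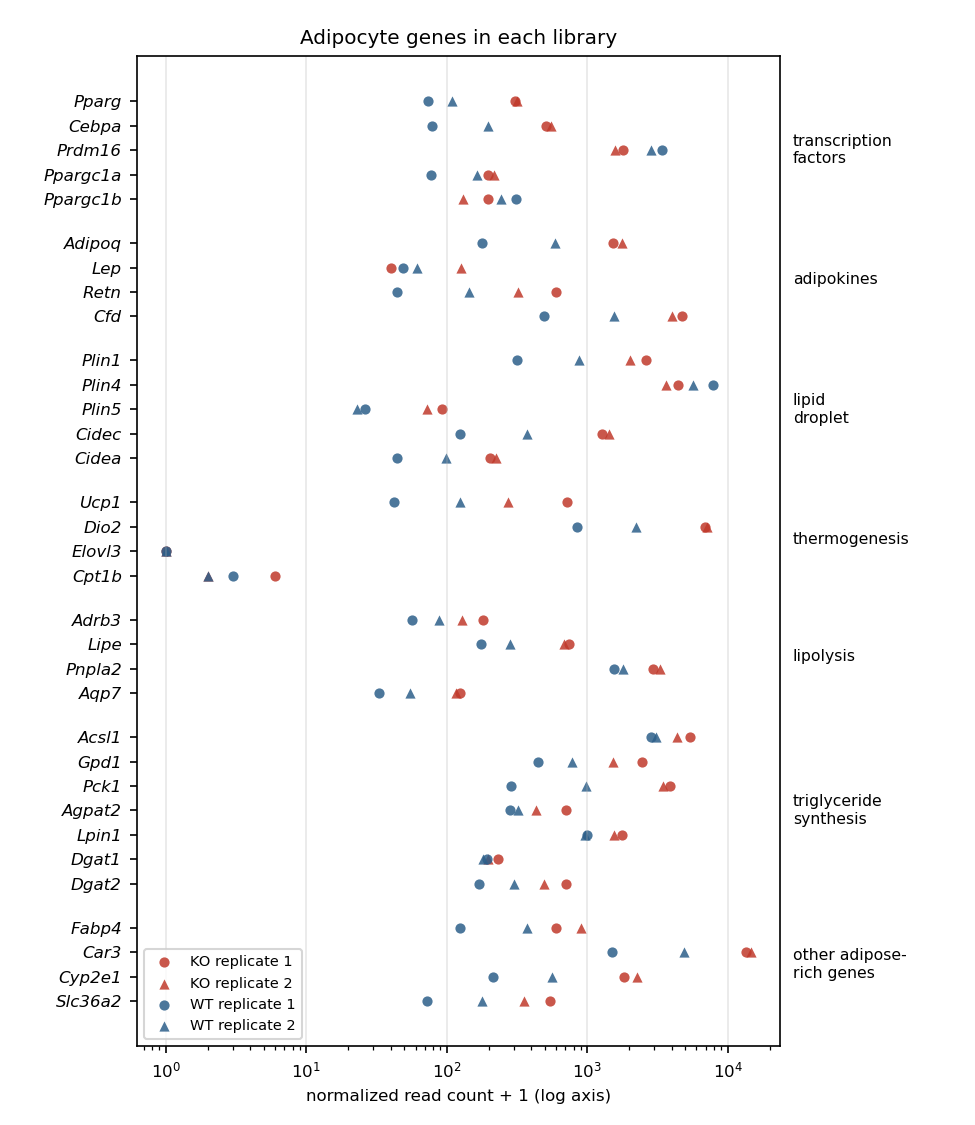
Normalized read count plus 1 (log axis) of each of the 33 adipocyte genes in the KO (red) and WT (blue) libraries, with circles for replicate 1 and triangles for replicate 2, in groups by role. The KO points lie right of both WT points for most genes and left of them for Prdm16, Ppargc1b and Plin4, and Elovl3 is listed at 0 in all 4 libraries.

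Of the regulators, Pparg and Cebpa rose. Pparg, the nuclear receptor that drives adipocyte differentiation (chromosome 6, 115360951 to 115490399, plus strand, GRCm38), had 303 and 316 normalized counts in KO and 73 and 109 in WT libraries. Its KO values were close to each other and 3.40-fold above WT on average (log2 fold change 1.78, SE 0.24, limma adjusted p = 0.012). Cebpa, its partner transcription factor in adipocyte differentiation, had 506 and 556 in KO and 77 and 196 in WT libraries (log2 fold change 2.10, SE 0.42, limma adjusted p = 0.026). The co-activator genes of mitochondrial and oxidative metabolism were not called. Ppargc1a had 196 and 218 in KO and 76 and 163 in WT libraries, and Ppargc1b 195 and 130 in KO and 311 and 242 in WT libraries (limma adjusted p = 0.16 and 0.093). Both KO values lay above both WT values for Ppargc1a and below them for Ppargc1b. Prdm16, a co-regulator of brown fat identity that other cells of the vessel wall also express, fell. It had 1800 and 1569 in KO and 3396 and 2837 in WT libraries (log2 fold change -0.88, SE 0.13, limma adjusted p = 0.014). Without WT replicate 2 limma called 2 of the regulators higher and 0 lower, and without any other single library 0.

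Of the 4 secreted adipokines, 3 rose, beside 9.58% of all tested genes. Adipoq, which encodes adiponectin (chromosome 16, 23146536 to 23158028, plus strand, GRCm38), had 1519 and 1765 normalized counts in KO and 176 and 589 in WT libraries. Both KO libraries lay above both WT libraries, and WT replicate 2 lay 3.35-fold above WT replicate 1. Its log2 fold change was 2.34 (SE 0.52, limma adjusted p = 0.034). Cfd, which encodes the complement protease adipsin, had 4757 and 4011 in KO and 491 and 1545 in WT libraries (log2 fold change 2.32, SE 0.49). Retn, the gene of resistin, had 603 and 320 in KO and 43 and 144 in WT libraries (log2 fold change 2.46, SE 0.59, limma adjusted p = 0.041). Lep, the gene of leptin, had 39 and 126 in KO and 48 and 60 in WT libraries, so the groups overlapped and the KO libraries stood on either side of WT. Its log2 fold change of 0.38 (SE 0.56) was not called and turned to -0.45 without KO replicate 2. Limma called 2 adipokine genes without WT replicate 2 and 0 without any other single library.

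All 5 genes of the lipid droplet surface were called, 4 higher and 1 lower, beside 9.58% and 6.7% of all tested genes. Cidec, whose protein fuses droplets into larger ones (chromosome 6, 113424634 to 113435760, minus strand, GRCm38), had 1272 and 1441 normalized counts in KO and 124 and 375 in WT libraries, a 5.44-fold difference of the means. The log2 fold change was 2.64 (SE 0.48, limma adjusted p = 0.021). Plin1, the main perilipin coat protein of adipocytes, had 2605 and 2033 in KO and 318 and 875 in WT libraries (log2 fold change 2.12, SE 0.45). Plin5, a perilipin of oxidative tissues, was low, at 91 and 72 in KO and 25 and 22 in WT libraries (log2 fold change 1.74, SE 0.34). Cidea, a CIDE protein typical of brown fat, had 203 and 224 in KO and 43 and 98 in WT libraries (log2 fold change 1.70, SE 0.40). Plin4, a perilipin of small nascent droplets, went the other way, with 4436 and 3622 in KO and 7904 and 5710 in WT libraries (log2 fold change -0.74, SE 0.19, limma adjusted p = 0.046). After the libraries were rescaled to the same total its adjusted p by limma was 0.052. Limma called 3 droplet genes higher and 0 lower without WT replicate 2, and 0 without any other single library.

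Plin1 and Plin4 belong to a single family and moved in opposite directions, so their promoter windows are shown side by side, from 250 bases before to 50 bases after the start of the gene (RefSeq, GRCm38.p6; chr7:79732727-79733026 for Plin1 and chr17:56109733-56110032 for Plin4, both on the minus strand and written 5′ to 3′). Capitals mark matches to TTGCNNAA, a relaxed form of the element bound by C/EBP factors, on either strand.
Plin1: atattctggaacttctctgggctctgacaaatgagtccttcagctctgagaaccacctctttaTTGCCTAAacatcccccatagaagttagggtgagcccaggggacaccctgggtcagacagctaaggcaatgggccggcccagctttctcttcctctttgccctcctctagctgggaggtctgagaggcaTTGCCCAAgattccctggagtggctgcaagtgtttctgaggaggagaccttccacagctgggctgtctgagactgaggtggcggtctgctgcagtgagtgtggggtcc
Plin4: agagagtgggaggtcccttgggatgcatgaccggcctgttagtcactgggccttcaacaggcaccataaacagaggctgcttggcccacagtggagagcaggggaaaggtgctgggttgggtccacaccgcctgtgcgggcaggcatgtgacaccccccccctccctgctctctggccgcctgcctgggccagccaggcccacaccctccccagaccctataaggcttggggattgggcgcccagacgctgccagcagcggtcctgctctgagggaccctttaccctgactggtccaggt
The Plin1 window holds matches starting 187 and 58 bases before the start, and the Plin4 window holds none. Windows were found for 22 members (29 windows, since some genes have several), and 5 of the 29 windows had such a match, 1 each for Cidec, Dio2, Lep, Plin1 and Pparg. Of all 32851 windows, 10.8% had a match. The PPAR-RXR element, 2 nuclear receptor cores AGGTCA separated by 1 base of any kind, was in no member's window on either strand and in 0.0396% of all windows. A match is a run of letters and not a measured site, and whether matches bear on the direction of change was not tested.

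**Figure D2:**
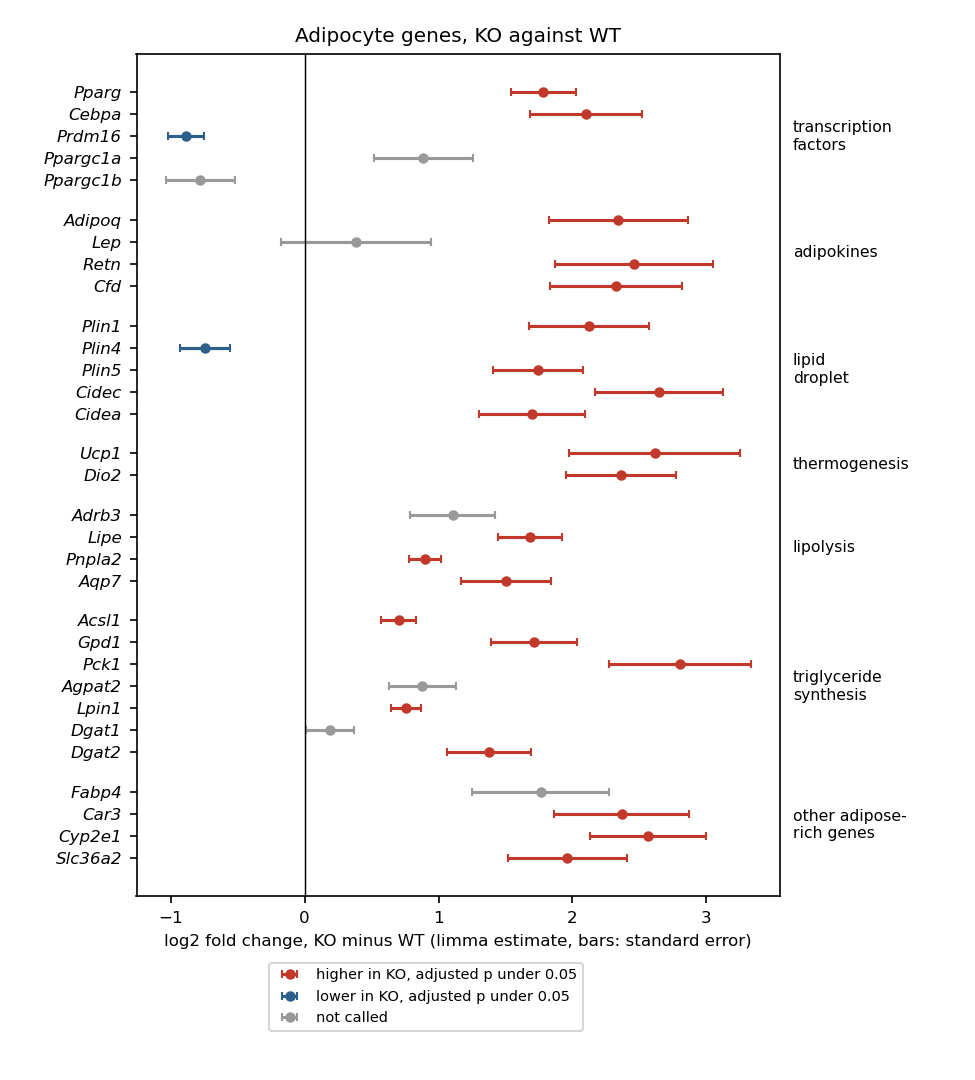
Log2 fold change of the 31 tested adipocyte genes, KO minus WT, with standard errors from limma, coloured by call at an adjusted p under 0.05. The 22 members that rose (red) lie between 0.70 for Acsl1 and 2.80 for Pck1, and the 2 that fell (blue) are Prdm16 and Plin4.

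Of the 4 thermogenic genes, Ucp1 and Dio2 were tested and both rose. Ucp1, the uncoupling protein of brown fat mitochondria (chromosome 8, 83290352 to 83298452, plus strand, GRCm38), had 722 and 271 normalized counts in KO and 41 and 124 in WT libraries. KO replicate 1 was well above KO replicate 2, as WT replicate 2 was above WT replicate 1, and the groups did not overlap. Its log2 fold change was 2.61 (SE 0.64, limma adjusted p = 0.043). Dio2, the deiodinase that activates thyroid hormone within brown fat, was the most abundant of them, with 6950 and 7171 in KO and 847 and 2215 in WT libraries (log2 fold change 2.36, SE 0.41, limma adjusted p = 0.019). Elovl3, a fatty acid elongase of cold-activated brown fat, was listed at 0 in all 4 libraries. Cpt1b, the carnitine palmitoyltransferase of muscle and brown fat, had 5 and 1 in KO and 2 and 1 in WT libraries and was below the filter. In the annotation 81.4% of its exon length is shared with the same-strand gene Gm44502, so its reads may have been left uncounted. Limma called 1 of the thermogenic genes higher without WT replicate 2 and 0 without any other single library.

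Genes of lipolysis were higher, with 3 of 4 called, beside 9.58% of all tested genes. Lipe, hormone-sensitive lipase, had 742 and 685 normalized counts in KO and 174 and 280 in WT libraries (log2 fold change 1.69, SE 0.24, limma adjusted p = 0.012). Pnpla2, adipose triglyceride lipase, which many cell types express, had 2959 and 3276 in KO and 1559 and 1794 in WT libraries (log2 fold change 0.90, SE 0.12). Its difference was among the smaller ones and its replicates were close. Aqp7, the channel through which adipocytes release glycerol, had 124 and 116 in KO and 32 and 54 in WT libraries (log2 fold change 1.51, SE 0.34). Adrb3, the adrenergic receptor that triggers lipolysis in mouse fat, had 179 and 128 in KO and 56 and 87 in WT libraries. It was not called, with an adjusted p by limma of 0.066 (log2 fold change 1.11, SE 0.32). Of its exon length, 24.9% overlaps the opposite-strand gene Gm45470, whose reads it may share. Rescaled to the same total, its adjusted p by limma was 0.045. The calls numbered 1 without WT replicate 2 and 0 without any other single library.

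Of the 7 genes of triglyceride synthesis, 5 rose, beside 9.58% of all tested genes. All 7 had both KO values above both WT values, as did 30.7% of all tested genes. Pck1, whose enzyme supplies glycerol 3-phosphate in fat and starts gluconeogenesis in liver, had 3916 and 3492 normalized counts in KO and 284 and 986 in WT libraries. This difference was the largest among the tested members on the log2 scale, at 2.80 (SE 0.53), with a limma adjusted p of 0.023. Gpd1, which makes glycerol 3-phosphate from a glycolytic intermediate, had 2451 and 1528 in KO and 446 and 777 in WT libraries (log2 fold change 1.72, SE 0.32). Dgat2, which adds the last fatty acid to triglyceride, had 708 and 488 in KO and 170 and 301 in WT libraries (log2 fold change 1.37, SE 0.31). Acsl1 and Lpin1, which many tissues express, rose with smaller fold changes. Acsl1, which activates fatty acids to acyl-CoA, had 5387 and 4349 in KO and 2855 and 3101 in WT libraries (log2 fold change 0.70, SE 0.13), and the phosphatidate phosphatase gene Lpin1 1759 and 1557 in KO and 997 and 959 in WT libraries (log2 fold change 0.76, SE 0.11). Agpat2, an acyltransferase of phosphatidic acid synthesis, had 707 and 432 in KO and 282 and 319 in WT libraries and missed the threshold (limma adjusted p = 0.063). It passed after rescaling to the same total (limma adjusted p = 0.037). Dgat1, the other diacylglycerol acyltransferase gene, had 231 and 196 in KO and 192 and 181 in WT libraries (log2 fold change 0.19, SE 0.18). Of these genes limma called 1 without WT replicate 2 and 0 without any other single library.

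Among the remaining adipose-rich genes, Car3, Cyp2e1 and Slc36a2 rose and Fabp4 was not called. Car3, carbonic anhydrase III of fat and muscle (chromosome 3, 14863512 to 14872523, plus strand, GRCm38), had 13522 and 14613 normalized counts in KO and 1506 and 4910 in WT libraries (log2 fold change 2.37, SE 0.50, limma adjusted p = 0.030). Cyp2e1, a cytochrome P450 of liver and fat, had 1828 and 2281 in KO and 211 and 561 in WT libraries (log2 fold change 2.57, SE 0.43, limma adjusted p = 0.018). The 8 hepatocyte markers together summed to 12 and 25 in KO and 3 and 3 in WT libraries, and Ttr, Cyp3a11 and Cyp2c29 were listed at 0 throughout. The 12 striated muscle markers summed to 963 and 690 in KO and 353 and 420 in WT libraries, most of it Actc1 in KO, and 1 of the 9 tested rose. Slc36a2, an amino acid transporter of the brown adipocyte surface, had 541 and 355 in KO and 71 and 176 in WT libraries (log2 fold change 1.96, SE 0.44). Fabp4, the fatty acid binding protein of adipocytes, macrophages and capillary endothelium, had 595 and 899 in KO and 123 and 375 in WT libraries (log2 fold change 1.76, SE 0.51, limma adjusted p = 0.068). It passed under quantile normalization (limma adjusted p = 0.049) and without WT replicate 2 (0.047), where all 4 of these genes were called. None was called without any other single library.

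The brown genes of the set did not move as a block against the white ones. Of the brown genes, Ucp1, Cidea and Dio2 rose, Prdm16 fell and Elovl3 was listed at 0. Of the white genes, Retn rose and Lep was not called. The mean log2(value + 1) of the 5 brown genes minus that of the 2 white genes was 0.87 and 0.21 in KO and 0.92 and 0.68 in WT libraries. The groups overlapped, and the difference of the means, -0.26, became 0.07 without KO replicate 2. The spread within groups was 0.35 (SD). Elovl3, at 0 throughout, adds a fixed 0 to the brown mean and so shrinks its change. Over the 4 tested brown genes the mean log2(value + 1) was 10.19 and 9.83 in KO and 8.08 and 9.04 in WT libraries. That of the white genes was 7.28 and 7.66 in KO and 5.54 and 6.56 in WT libraries. Without Elovl3 the difference of the means thus lay slightly above 0, within the spread. Ucp1 relative to Retn, a brown against a white gene, stood at 1.20 and 0.85 in KO and 0.95 and 0.86 in WT libraries, so the groups overlapped here too. Ucp1 relative to Lep was 18.5 and 2.15 in KO and 0.85 and 2.07 in WT libraries. KO replicate 1 stood apart in that ratio, having the highest Ucp1 and the lowest Lep of all 4 libraries. An exact permutation test of 2 against 2 libraries cannot reach the 0.05 threshold, and no p is given.

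**Figure D3:**
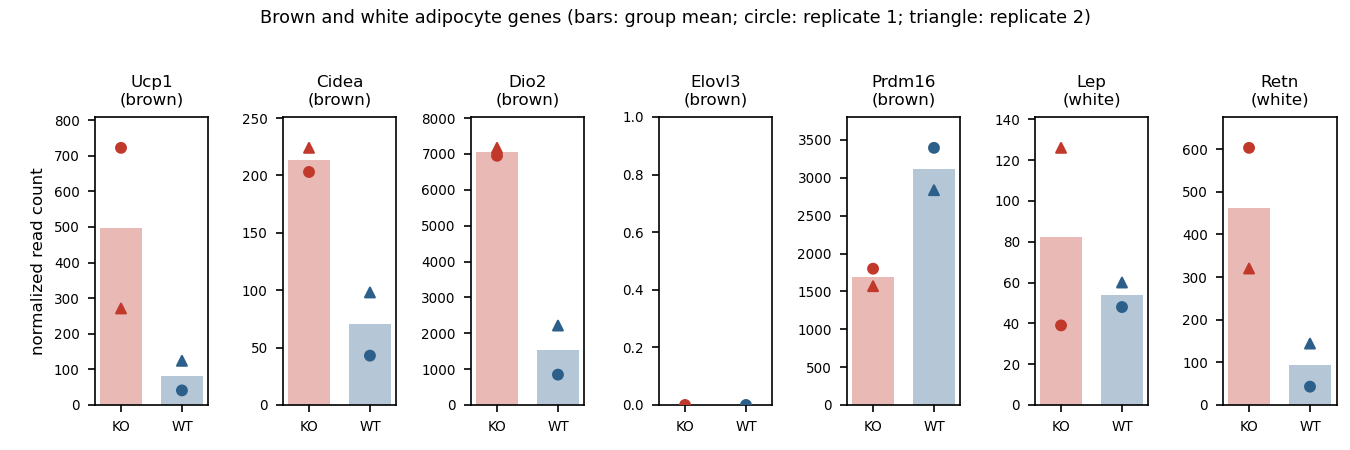
Normalized read counts of the 5 brown and 2 white adipocyte genes of the contrast in KO (red) and WT (blue) libraries, with bars from 0 to the group mean, circles for replicate 1 and triangles for replicate 2, each gene on its own axis. Ucp1, Cidea, Dio2 and Retn are higher in both KO libraries, Prdm16 is lower in both, and the groups overlap for Lep.

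The promoter windows of Ucp1 and Lep are shown as the most specific brown and white genes of the contrast (RefSeq, GRCm38.p6; chr8:83290098-83290397 and chr6:29059971-29060270, both on the plus strand). Capitals mark the nuclear receptor core AGGTCA in Ucp1 and the C/EBP element TTGCGCAA in Lep, each searched on both strands.
Ucp1: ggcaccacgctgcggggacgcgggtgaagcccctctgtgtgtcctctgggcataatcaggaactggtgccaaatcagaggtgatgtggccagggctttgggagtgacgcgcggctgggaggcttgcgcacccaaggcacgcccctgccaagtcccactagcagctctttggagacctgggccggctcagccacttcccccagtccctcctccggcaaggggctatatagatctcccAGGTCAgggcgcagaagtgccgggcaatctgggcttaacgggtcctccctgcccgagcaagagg
Lep: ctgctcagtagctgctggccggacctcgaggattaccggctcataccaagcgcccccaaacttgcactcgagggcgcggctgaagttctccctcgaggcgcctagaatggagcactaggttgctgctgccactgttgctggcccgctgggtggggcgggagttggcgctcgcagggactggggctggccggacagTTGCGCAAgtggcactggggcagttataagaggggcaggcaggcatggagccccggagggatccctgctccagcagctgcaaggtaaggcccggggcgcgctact
AGGTCA starts 14 bases before the start of Ucp1 and occurs in 16.3% of all windows. TTGCGCAA starts 55 bases before the start of Lep, also counts as a TTGCNNAA match, and occurs in 0.183% of all windows and in no other member's window.

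Several members kept a nearly constant ratio to Adipoq across all 4 libraries. Car3 had 890% and 828% of the Adipoq count in KO and 856% and 834% in WT libraries, the narrowest range of any member, with a highest-to-lowest quotient of 1.08. For Dio2 the values were 458% and 406% in KO and 481% and 376% in WT libraries. Cidec stood at 83.7% and 81.6% in KO and 70.5% and 63.7% in WT libraries. Together 6 members (Cebpa, Cfd, Cidec, Dio2, Car3 and Cyp2e1) stayed within 1.5-fold. A wide range marked other members. Plin4 was at 292% and 205% of Adipoq in KO and at 4491% and 969% in WT libraries, and Prdm16 at 118% and 88.9% in KO and at 1930% and 482% in WT libraries. Ucp1 was at 47.5% and 15.4% in KO and 23.3% and 21.1% in WT libraries, with KO replicate 1 the highest. How many of all tested genes kept within 1.5-fold was not computed. A narrow range was not particular to adipocyte genes. The macrophage marker Cd163, at 1309 and 1285 normalized counts in KO and 141 and 433 in WT libraries, also tracked Adipoq closely. Another, Itgam, at 1017 and 1917 in KO and 52 and 174 in WT libraries, did not.

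The WT libraries also differed from each other in these genes. WT replicate 2 was at least 2-fold above WT replicate 1 for 15 of the 31 tested members, compared with 7.86% of all tested genes. It was above WT replicate 1 by any amount for 25 members, against 52.5% of all tested genes. The 15 members included Pck1, Retn, Adipoq, Car3 and Cfd, and 13 of them rose in KO, with log2 fold changes over the 15 from 0.89 to 2.80. Of the other 16 tested members 9 rose, and their log2 fold changes lay between -0.88 and 1.78. Both quantities contain WT replicate 1, so they are given side by side and not as a relation. The KO mean was above WT replicate 2 for 28 of the 31 members, a count whose share over all tested genes was not computed. The same held for 12 of 12 macrophage, 11 of 11 endothelial and 9 of 10 fibroblast markers, and for 0 of 10 smooth muscle markers. Over all members the KO libraries had no such common direction. KO replicate 1 was above KO replicate 2 for 19 members and below it for 12, and above it for 51.3% of all tested genes. Single lists did differ. KO replicate 1 was above for all 7 triglyceride synthesis members and all 10 smooth muscle markers, and below for 11 of 12 macrophage markers. It was above for 5 and below for 6 endothelial markers, and above for 7 and below for 3 fibroblast markers.

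**Figure D4:**
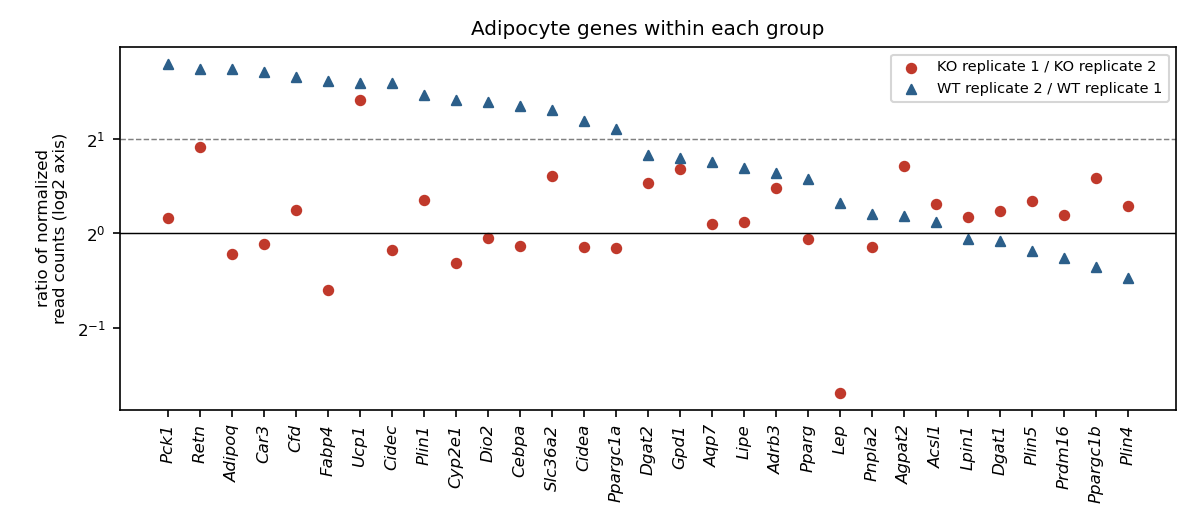
Ratio of normalized counts of KO replicate 1 to KO replicate 2 (red circles) and of WT replicate 2 to WT replicate 1 (blue triangles) for the 31 tested adipocyte genes, on a log2 axis, ordered by the WT ratio. The dashed line marks a 2-fold ratio, which 15 members reach in WT, while the KO ratios scatter around 1 with Ucp1 highest and Lep lowest.

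Per kilobase of annotated exon, Car3 (4910 normalized counts per kilobase), Cfd (4755), Dio2 (1214) and Adipoq (1189) had the highest mean levels in KO. In WT, Plin4 (1178), Car3 (1120) and Cfd (1104) led. The WT libraries set these 3 apart only within their spread, since Plin4 had 1368 and 988 counts per kilobase and Car3 526 and 1714. Lep was low on this scale in KO and WT, at 24.6 and 16.1 counts per kilobase.

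Other genes of adipocytes and of lipid metabolism, from lists outside the 33, were counted in the same fit, in which 9.58% of all tested genes rose and 6.7% fell. Of 21 tested genes of fatty acid uptake, storage and release, 9 rose and 0 fell. Among them Plin2, a droplet coat protein of many cell types, had 531 and 509 normalized counts in KO and 210 and 240 in WT libraries (log2 fold change 1.21, SE 0.15), and the fatty acid translocase gene Cd36 3952 and 3664 in KO and 744 and 1610 in WT libraries (log2 fold change 1.80, SE 0.34). The acyltransferase gene Gpam had a log2 fold change of 0.81 and Angptl4, an inhibitor of lipoprotein lipase, of 1.77. Of 18 further mature adipocyte genes 4 rose and 1 fell. Mrap, an accessory protein of melanocortin receptors, had 171 and 224 in KO and 24 and 46 in WT libraries (log2 fold change 2.52, SE 0.38), Pnpla3 368 and 248 in KO and 118 and 106 in WT libraries, and Tusc5 276 and 383 in KO and 87 and 131 in WT libraries. The gene that fell was Aoc3, an amine oxidase of adipocytes and of smooth muscle, with 3747 and 3309 in KO and 10253 and 9914 in WT libraries (log2 fold change -1.52, SE 0.11, limma adjusted p = 0.0048). With WT replicate 2 left out, limma called 6 uptake and storage genes higher, and 3 mature adipocyte genes higher and 1 lower, and with any other single library left out 0.

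Of 18 enzymes of fatty acid oxidation, 3 rose and 0 fell, where 9.58% and 6.7% of all tested genes did so, and the median log2 fold change was 0.26. Those that rose included Cpt2, carnitine palmitoyltransferase 2 (log2 fold change 0.85, SE 0.20), and Etfb, an electron transfer flavoprotein subunit (log2 fold change 0.93, SE 0.22). Without WT replicate 2 limma called 1, and without any other single library 0. Of 15 tested further brown and beige genes, 1 rose and 2 fell, counts too small to set apart from the 9.58% and 6.7% of all tested genes. The riser was the potassium channel gene Kcnk3, at 451 and 260 normalized counts in KO and 73 and 134 in WT libraries (log2 fold change 1.78, SE 0.38), and Gyk, glycerol kinase, and the thioesterase gene Acot11 fell, with log2 fold changes of -0.72 (SE 0.15) and -0.64 (SE 0.13). Cox8b, a cytochrome oxidase subunit of brown fat and muscle, had 39 and 48 in KO and 13 and 33 in WT libraries, and Zic1, a marker of classical brown fat, 0 and 1 in KO and 0 and 0 in WT libraries. Both were named after their values were seen. Called or not, 7 of the 15 tested genes had both KO values above both WT values, and 5 had both below. Of all tested genes, 30.7% and 32.1% were so placed. Slc27a2, above and not called, had 65 and 27 in KO and 0 and 10 in WT libraries. The uncalled genes Ebf2, Ucp3, Otop1 and Ppara also lay above, and the uncalled Tmem26, Pank1 and Bmp8b below, all named outside the naming rule. Of 11 further white adipocyte genes, Hoxc8 (log2 fold change 1.32, SE 0.17) and Rbl1 (log2 fold change 1.18, SE 0.19) rose and 0 fell. Without WT replicate 2, limma called 1 brown and 1 white gene higher, and without any other single library 0.

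Of 15 tested genes of adipocyte progenitors and early adipogenesis, 5 rose and 0 fell, beside 9.58% and 6.7% of all tested genes. In the rescaled and the quantile-normalized fit given below, 12.2% and 10.1% of all tested genes rose. Cd24a had 342 and 311 normalized counts in KO and 47 and 89 in WT libraries (log2 fold change 2.32, SE 0.33), and Ly6a, a surface antigen of progenitors and endothelium, 1413 and 1280 in KO and 232 and 485 in WT libraries (log2 fold change 2.00, SE 0.33). Zfp521 (log2 fold change 1.48, SE 0.32), Cebpb (log2 fold change 1.14, SE 0.25) and Cebpd (log2 fold change 1.10, SE 0.27), the last of which lies outside the naming rule, rose as well. Limma called 7 of the list without WT replicate 2 and 0 without any other single library, and rescaling to the same total or quantile normalization gave 8.

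Markers of other cell types moved in the same libraries, where 9.58% of all tested genes rose and 6.7% fell. All 12 macrophage markers rose (median log2 fold change 2.75), and their counts summed to 14050 and 17451 in KO and 1376 and 3806 in WT libraries. Of 11 endothelial markers 6 rose (median 1.29, sums of 14771 and 13234 in KO and 5845 and 8282 in WT). Of 10 fibroblast markers 1 rose (median 1.06, sums of 271004 and 277122 in KO and 82712 and 174868 in WT). Rescaling to the same total gave 4 fibroblast markers and quantile normalization 6, where 12.2% and 10.1% of all tested genes rose. Of 10 smooth muscle markers 8 fell and 0 rose (median -0.99, sums of 198456 and 151390 in KO and 485418 and 455808 in WT). Of 4 tested peripheral nerve markers 1 rose (median 1.14, sums over all 6 of 516 and 580 in KO and 194 and 409 in WT), and quantile normalization gave 0. The 5 mesothelial markers summed to at most 21 in any library. WT replicate 2 was above WT replicate 1 for all 12 macrophage, 11 endothelial, 10 fibroblast and 4 tested nerve markers, as it was for 25 of the adipocyte genes. The part of these cell types in the results above was not tested. Without WT replicate 2 limma called 10 macrophage, 6 endothelial, 6 fibroblast and 0 nerve markers higher and 2 smooth muscle markers lower, and without any other single library 0.

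**Figure D5:**
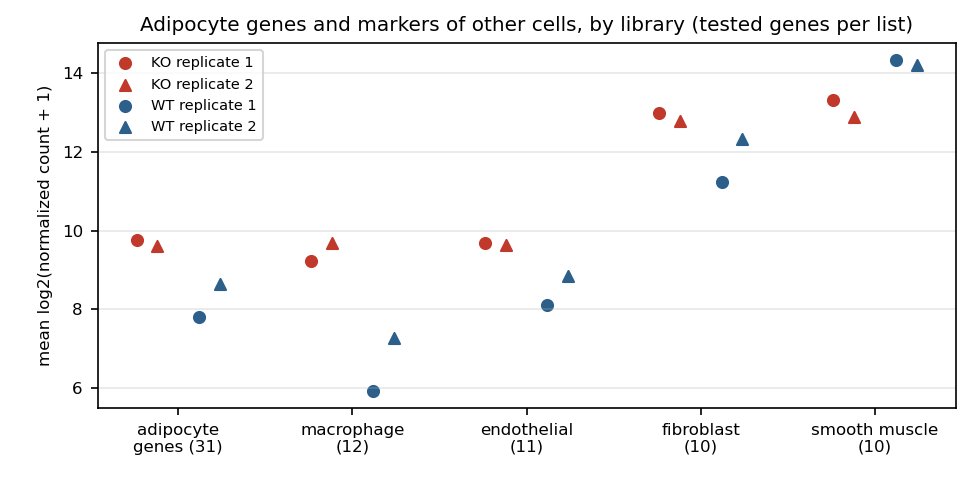
Mean log2(normalized count + 1) over the tested genes of each list in KO (red) and WT (blue) libraries, with circles for replicate 1 and triangles for replicate 2. The adipocyte genes stand at 9.76 and 9.60 in KO and 7.80 and 8.64 in WT, macrophage, endothelial and fibroblast markers are also higher in both KO libraries, and smooth muscle markers are lower.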

How the data were processed

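The authors deposited 1 table of normalized read counts per gene, rounded to whole numbers, with 1 column per library, and its unit was taken as a score. The submitters' processing notes list DESeq2 1.14.1, featureCounts 1.5.1 of Subread, STAR 2.5.2b and FastQC, with build mm10/GRCm38 but no roles. Annotation and strand setting of the counting were not given in the sources used here. Per the labels' protocols, ribosomal RNA was removed and stranded libraries were made from total RNA. All 37 mitochondrial genes were listed at 0, so a listed 0 is not read as absence.

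Values were transformed to log2(value + 1), genes with a mean of at least 10 were kept, and KO was compared with WT in R 4.3.3 with limma 3.58.1, with an intensity trend, two-sided, and Benjamini-Hochberg adjustment over 15058 genes (3.96 prior and 2 residual degrees of freedom). Because the deposited values are normalized and rounded, no count model was used. Fold changes on this scale understate those of low genes. Read totals were estimated from the spacing of rounded values up to 400.

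Members and lists were chosen with earlier results of these data known. Members are all accounted for, and of other lists up to 4 genes with the smallest p are named. A gene of the fatty acid oxidation list that is counted is not reported here by name. Exon lengths, positions and overlaps (reported from 20%) come from GENCODE M21 on GRCm38, and promoter windows from RefSeq. Alternatives were the pseudocount, the filter, the trend, the scaling, leaving out each library and a replicate block.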

Additional observations from a re-analysis of the deposited data

How the results depend on the processing

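The number of adipocyte genes called higher, 22, ran from 22 to 24 with a pseudocount of 0.5 or 5, a filter at a mean of 50, rescaling to the same total or quantile normalization, and the number called lower, 2, became 1 after rescaling to the same total and was 2 in the others. Without a filter limma called 0 members in either direction and 0 genes overall (5472 genes and 24 members higher at an unadjusted p under 0.05), and without an intensity trend again 0 members and 0 genes (4274 genes and 24 members higher). The cause was not tested. Leaving out 1 library gave 0 to 14 members higher and 0 lower, beside 0 to 587 genes higher and 0 to 153 lower against 1443 and 1009 in the 4-library fit. In these fits the lone library of a group is assumed to vary like the other group. The brown minus white difference with all 5 brown genes ran from -0.60 to 0.07 over the fits with 1 library left out. Among these fits it reversed only without KO replicate 2 (0.067), as did the log2 fold change of Lep, which ran from -0.45 to 1.22. The deviations of the same-numbered KO and WT libraries from their group means had a correlation over genes of 0.12, but with 2 libraries a group this does not show that the numbers pair the libraries. With a replicate block limma called 24 members higher and 3 lower, and 1823 genes higher and 1213 lower. The members added were Fabp4 (adjusted p = 0.00701) and Agpat2 (0.0464), higher, and Ppargc1b (0.0345), lower. The block also gave 8 progenitor genes higher and 2 lower, 8 further mature adipocyte genes higher and 4 fibroblast markers higher. Under each scaling 28 members had a log2 fold change above 0. Rounding and 2 libraries a group limit the precision of low members such as Lep, Plin5 and Aqp7.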
